A study of Mus musculus with 3 samples.

Results

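Insl3, the gene of the peptide hormone insulin-like 3, and 6 receptor genes of hormone signalling in the testis (Rxfp2, Lhcgr, Nr5a1, Prlr, Esr1 and Nr3c1) were followed across the cell types of the mouse testis. The 7 genes were taken by symbol from the 55450 genes of the tables, and each symbol was found once. Testis cells were profiled by droplet single-cell RNA-seq with 10x 3′ V3 chemistry, in which each captured mRNA molecule is counted as 1 unique molecular identifier (UMI). Every group carried the same azoospermia model, made with busulfan, an alkylating drug that depletes dividing germ cells, so no library came from an untreated testis. The 3 groups then differed in what the mice received: PBS, the vehicle (labelled PBS+Busulfan); blood exosomes of wild-type mice (EXO+Busulfan); or blood exosomes of mice with an imbalanced gut microbiota (dEXO+Busulfan). They are called PBS, EXO and dEXO here, and each is 1 library. Strain, age, dose, time after treatment and how many mice went into a library are not given in the sources used here, and nothing separates a difference between treatments from a difference between animals or cell preparations.

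INSL3 is secreted by Leydig cells, the steroid-making cells between the seminiferous tubules, and acts on the G protein-coupled receptor RXFP2, which is known from the gubernaculum during testis descent and from germ cells. Luteinizing hormone from the pituitary acts on Leydig cells through LHCGR and cAMP. NR5A1, also called SF1, is an orphan nuclear receptor that binds the promoters of Insl3 and of the steroid-making genes. PRLR is the prolactin receptor, ESR1 estrogen receptor alpha, and NR3C1 the glucocorticoid receptor.

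The libraries held 5514 barcodes (PBS), 10228 (EXO) and 9760 (dEXO), with 97253862, 91787154 and 96655663 UMIs, and 5267, 9860 and 8947 cells were used after filters. The doublet caller marked 4, 2 and 172 barcodes, far under the 4.22%, 7.89% and 7.30% expected from the loading, so doublets remain in the cells described here; each pair of libraries shared 19 barcodes. Clusters were named "X-like" from marker genes, with the 7 genes kept out of the clustering. There were 2127 (PBS), 2598 (EXO) and 2091 (dEXO) Leydig-like cells, with medians of 29816, 16421 and 13224 UMIs per cell, and all 8 Leydig markers (such as Star, Cyp17a1 and Hsd3b6) were detected in each library. The other classes were stromal-like (2021, 4569 and 3166 cells), peritubular myoid-like, Sertoli-like, macrophage-like, T or NK-like and 4 germ-cell classes, and none of them had a marker of its own at 0. Levels are given as CPM, counts scaled to the same total, of the UMIs summed over the cells of a class in a library, with 95% exact Poisson intervals. These intervals, and those of ratios and shares, cover counting error only and not the spread between animals; with 1 library per group there is no test and no p-value for any difference between libraries.

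Insl3 was concentrated in the Leydig-like cells of all 3 libraries. Its level there was 25971 CPM (25932 to 26010) in PBS, 36129 (36073 to 36186) in EXO and 29053 (28992 to 29114) in dEXO. The EXO library was highest and the PBS library lowest, and the intervals do not overlap. Leydig-like cells held 92.4%, 91.9% and 87.6% of all Insl3 UMIs of the used cells. The median Leydig-like cell gave 2.48% of its UMIs to Insl3 in PBS, 3.40% in EXO and 2.76% in dEXO. Cells ranged widely: the lowest 5% of cells lay under 0.418%, 0.305% and 0.483%, and the highest 5% above 3.96%, 5.63% and 4.63%. Almost no cell lacked the transcript, with 3 of 2127 (PBS), 15 of 2598 (EXO) and 12 of 2091 (dEXO) Leydig-like cells without an Insl3 UMI.

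**Figure D1:**
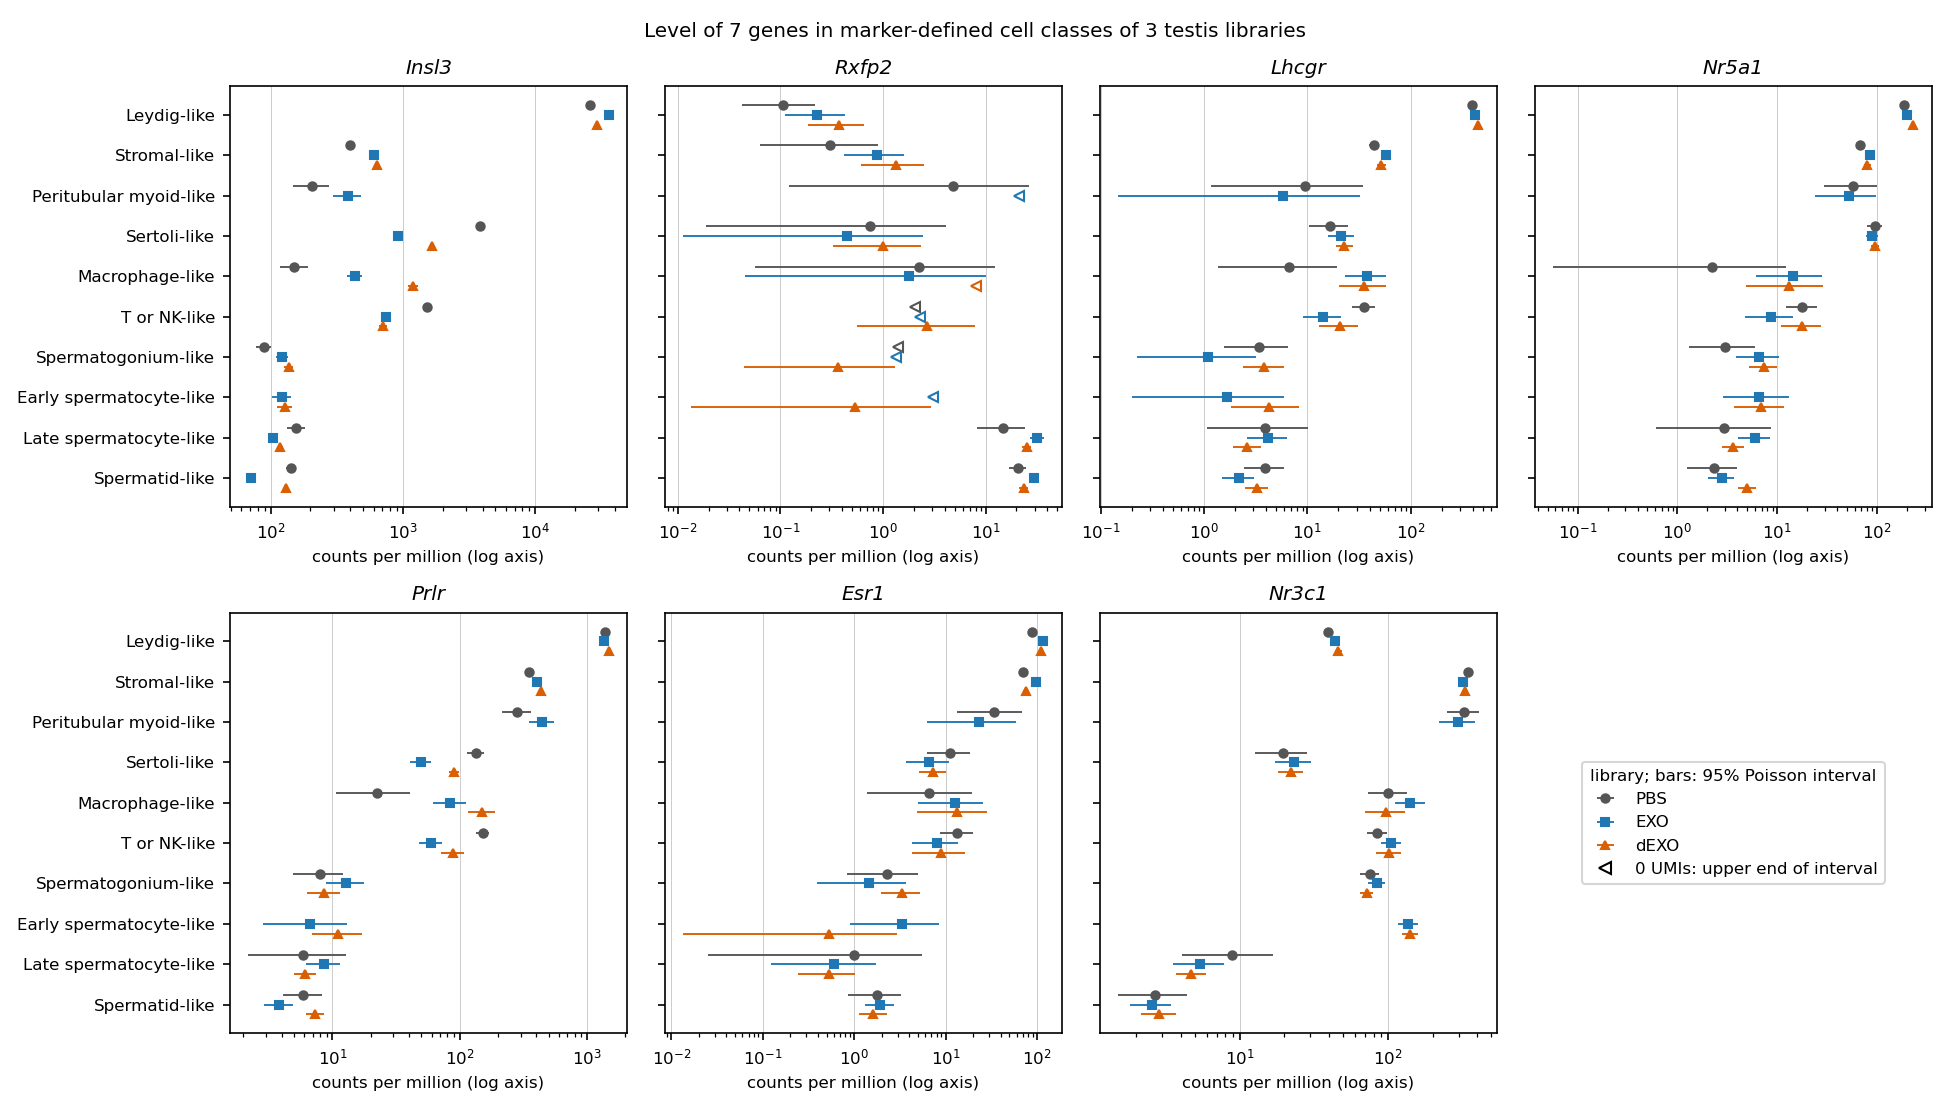
Level of each of the 7 genes (CPM of summed UMIs, log axis, 1 panel per gene) in each class, with 1 point per library, bars for the 95% counting interval and open triangles at its upper end where no UMI was seen. Insl3, Lhcgr, Nr5a1, Prlr and Esr1 are highest in Leydig-like cells in every library, Nr3c1 in stromal-like cells and Rxfp2 in late spermatocyte-like and spermatid-like cells.

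The Insl3 gene lies at chr8:71689214-71690575 on the plus strand (GRCm38), inside the larger Jak3 gene (chr8:71676296-71690575, plus strand), and its upstream window falls in intron 24 of Jak3. In RefSeq's promoter table (GRCm38.p6) the part of the promoter before its start, 212 bases at chr8:71689002-71689213, holds 2 matches to CAAGGNC, the SF1 motif, searched on both strands. They are shown because NR5A1 is 1 of the genes followed here. The matches, CAAGGTC 99 bases and CAAGGCC 19 bases before the end of the window, are in capitals, 5′ to 3′.
Insl3 promoter: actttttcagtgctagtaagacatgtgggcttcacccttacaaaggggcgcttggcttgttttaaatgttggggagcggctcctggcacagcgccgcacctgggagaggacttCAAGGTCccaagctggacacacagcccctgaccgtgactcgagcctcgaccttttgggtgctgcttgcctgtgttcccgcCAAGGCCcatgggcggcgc
Of 32851 RefSeq promoters cut to the same 212 bases, 13.1% hold at least 1 match and 1.23% hold 2. Neither this motif nor the cAMP response element TGACGTCA (both strands) occurs in the 250-base windows of Rxfp2 (chr5:150018425-150018674, plus strand), Lhcgr (chr17:88792015-88792264, minus strand) and Prlr (chr15:10176988-10177237, plus strand; 1 of 3 Prlr promoters in the table). In windows of that length 15.03% and 1.55% of promoters hold a match to the SF1 motif and to the response element, respectively. RefSeq's table holds no promoter of Nr5a1 or Nr3c1, and neither of its 2 Esr1 promoters was read, so these genes were not searched. A match is a run of letters and not a measured binding site.

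Exon 2 of Insl3 (chr8:71690172-71690575, 404 bases, 191 of them coding) has the same coordinates as exon 25 of 1 of the 5 Jak3 transcripts, in which none of it is coding. The 2 mRNAs therefore share their 3′ end, which is the end that this chemistry reads, and differ only upstream of the junction. The 15 bases on each side of the junction show this, with the shared exon in capitals.
Insl3 exon 1 to exon 2: tggagacccgggaccGGGAGCTGCTGCAGT
Jak3 exon 24 to exon 25: cagccaggggcgagaGGGAGCTGCTGCAGT
Jak3, a kinase of cytokine receptors known from lymphocytes, was counted in Leydig-like cells at 83.5 CPM (PBS), 72.5 (EXO) and 55.2 (dEXO), against 23.6, 16.1 and 21.6 in T or NK-like cells. It came to 3.22, 2.01 and 1.90 Jak3 UMIs per 1000 Insl3 UMIs in Leydig-like cells. No source used here says how reads in the shared exon were assigned, so the part of the Jak3 count that is Insl3 mRNA, and the reverse, was not tested.

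The 4 Leydig-like clusters differed in their Insl3 level and in their share of each library. Cluster c0 took 57.8% of the PBS library's Leydig-like cells, 46.7% of EXO's and 4.78% of dEXO's. Cluster c1 held 3.71%, 20.2% and 78.7%, so most Leydig-like cells of the dEXO library sat in another cluster than those of PBS. Cluster c5 held 36.1%, 28.8% and 12.1%, and the small cluster c18 held 2.40%, 4.39% and 4.40%. Insl3 stood at 28918, 41900 and 32582 CPM in c0 and at 23145, 33502 and 29890 in c1. It was lowest in c5, at 18378, 21115 and 13980 CPM, where stromal markers were the second set of markers, and at 35453, 39730 and 38080 in c18. The EXO library was the highest in all 4 clusters, while dEXO was above PBS in c0, c1 and c18 and below it in c5.

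Between libraries, the log2 ratio of Insl3 in Leydig-like cells was 0.48 (0.47 to 0.48) for EXO over PBS, 0.16 (0.16 to 0.17) for dEXO over PBS and -0.31 (-0.32 to -0.31) for dEXO over EXO. No pair passed 1.5-fold, the size used here to call a difference in the absence of a test. The 3 pairs share libraries and are not independent. Of the 15078 genes with at least 50 UMIs over the PBS and EXO libraries, 16.9% passed 1.5-fold in either direction; the share was 23.7% of 15007 genes for dEXO against PBS and 16.6% of 14706 for dEXO against EXO. In EXO against PBS 1924 genes were higher and 630 lower, and with ratios centred on the median gene 1768 and 749. The median gene's log2 ratio was 0.055, 0.082 and 0.061 in the 3 pairs, and relative to it Insl3 stood at 0.42, 0.079 and -0.38. None of the 6 genes with at least 50 UMIs per pair (all but Rxfp2) passed 1.5-fold in Leydig-like cells, so their differences between libraries were under the size at which genes were called. Within clusters, 1 Insl3 value passed it: in c5 dEXO was lower than EXO by -0.59 (-0.61 to -0.58) on the log2 scale, and the dEXO against PBS ratio there had the opposite sign to the pooled value, at -0.39 (-0.41 to -0.38). The share of all genes past 1.5-fold within single clusters was not computed, so values called within a cluster have no background beside them.

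**Figure D2:**
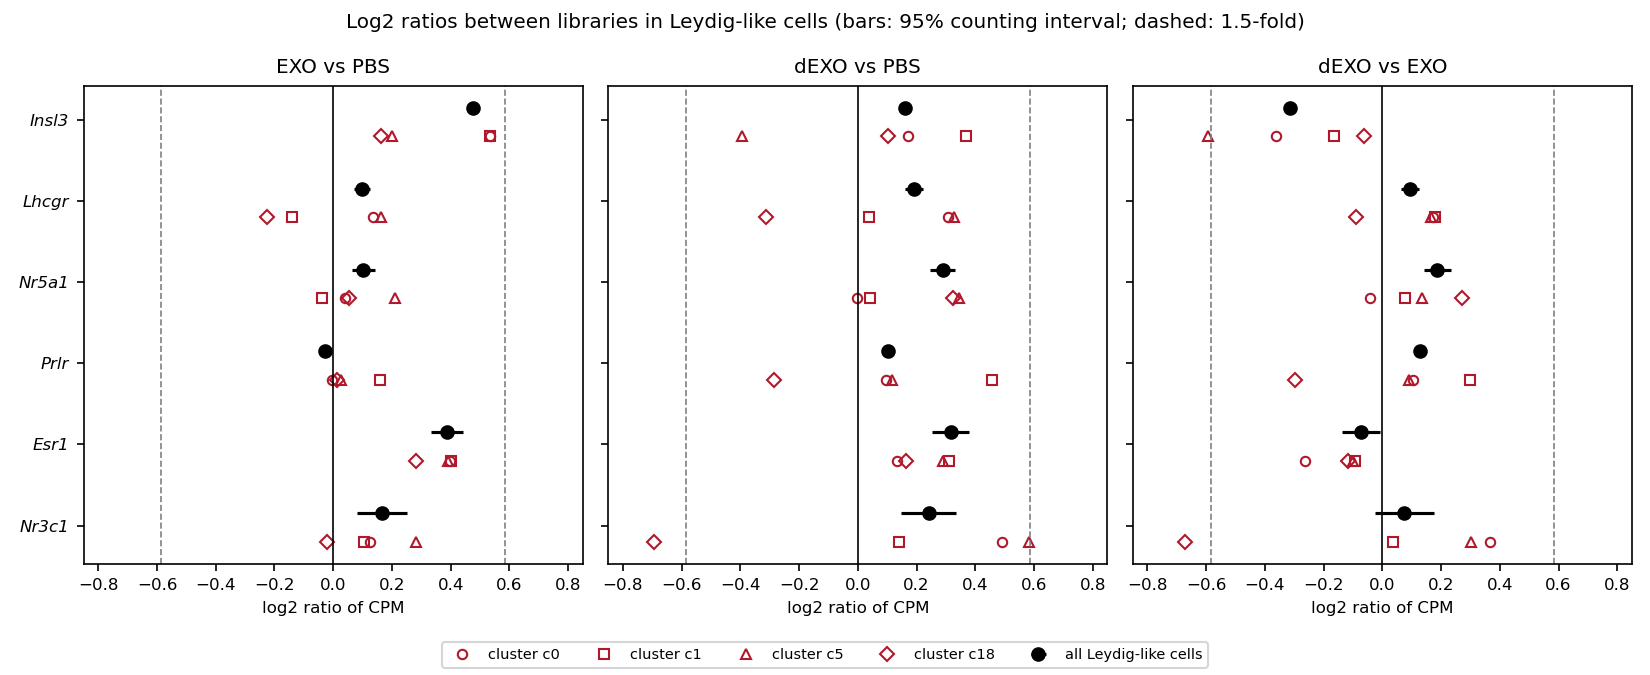
Log2 ratio between libraries of each gene in Leydig-like cells, over all clusters (filled, with 95% counting intervals) and in each cluster (open), with dashed lines at 1.5-fold. Over all clusters, no gene is past the lines; Insl3 in cluster c5 (-0.59, dEXO against EXO) and Nr3c1 in cluster c18 (-0.69 and -0.67, dEXO against PBS and against EXO) are.

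Lhcgr, the receptor for luteinizing hormone (chr17:88716481-88791990, minus strand), was highest in Leydig-like cells, at 395 CPM (390 to 399) in PBS, 422 (416 to 428) in EXO and 450 (443 to 458) in dEXO. Its level was lowest in PBS and highest in dEXO, with log2 ratios of 0.10 (EXO against PBS), 0.19 (dEXO against PBS) and 0.09 (dEXO against EXO), which is the reverse of the order of EXO and dEXO for Insl3. The order differed in cluster c18, at 402, 344 and 324 CPM, and in cluster c1, at 432, 393 and 444. Stromal-like cells came next, at 43.7, 57.6 and 52.1 CPM, and were followed without a gap by Sertoli-like, macrophage-like and T or NK-like cells, which ranged from 6.67 to 37.7 CPM over the libraries and overlapped each other. Both ends of this range are macrophage-like values on few UMIs: 3 in PBS, and 21 in EXO that lay in 1.10% of 182 cells. In Sertoli-like cells, 16.4, 21.3 and 22.8 CPM became 3.43, 5.52 and 2.65 once a few cells that gave over 1% of their UMIs to Insl3 and 6 Leydig tracer genes, described further on, were left out. Germ-cell classes with at least 50 cells lay between 1.09 and 4.23 CPM. Within the stromal-like class, Lhcgr was concentrated in cluster c7 (167, 141 and 132 CPM) and cluster c6 (69.6, 69.2 and 115), whereas c3 had 11.04, 11.2 and 6.02.

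Nr5a1 (chr2:38692656-38714542, minus strand) was also highest in Leydig-like cells, at 188 CPM (184 to 191) in PBS, 202 (197 to 206) in EXO and 229 (224 to 235) in dEXO. Its log2 ratios were 0.10, 0.29 and 0.19 for EXO against PBS, dEXO against PBS and dEXO against EXO, and the intervals of the 3 libraries did not overlap. In cluster c0 they did, at 194 CPM in PBS, 200 in EXO and 194 in dEXO. Cluster c1 stood at 226, 221 and 233, and in both clusters the intervals of all 3 log2 ratios reached to both sides of no difference. In c5 the levels were 167, 193 and 212 CPM, with PBS lowest. In c18 they were 183, 190 and 229, with dEXO highest. Sertoli-like cells, in which NR5A1 is a known regulator of Amh, followed at 95.7 CPM (79.8 to 114), 89.9 (78.0 to 103) and 95.8 (87.4 to 105), with no separation between libraries. Stromal-like cells, at 67.5, 86.0 and 80.4 CPM, were under every Sertoli-like value, and the intervals of both classes overlapped in EXO and dEXO but not in PBS. Peritubular myoid-like cells (57.4, 52.1 and 41.7) rested on 12, 9 and 4 UMIs, and all other classes were under 20 CPM.

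Prlr (chr15:10177238-10349180, plus strand) stood in Leydig-like cells at 1375 CPM (1366 to 1384) in PBS, 1348 (1337 to 1359) in EXO and 1475 (1461 to 1489) in dEXO. Over all clusters EXO was the lowest library for this gene, with log2 ratios of -0.03 (EXO against PBS), 0.10 (dEXO against PBS) and 0.13 (dEXO against EXO). Within cluster c1 Prlr was higher in EXO than in PBS (1206 against 1081 CPM, log2 ratio 0.16). In c0 (-0.005), c5 (0.03, 1501 against 1475 CPM) and c18 (0.01) the interval of this ratio reached to both sides of no difference. In c18 dEXO was the lowest library, at 1137, 1148 and 934 CPM, with log2 ratios of -0.28 against PBS and -0.30 against EXO. A predicted gene that overlaps Prlr, Gm21973, had at most 1 UMI in these cells. Stromal-like cells (347, 403 and 431 CPM) and peritubular myoid-like cells (282, 440 and 334) came next and overlapped, and T or NK-like (151, 58.9 and 88.0), Sertoli-like (134, 49.6 and 90.4) and macrophage-like cells (22.2, 84.3 and 149.7) overlapped below them. Germ-cell classes were between 3.78 and 12.7 CPM wherever a class had at least 50 cells.

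Esr1 (chr10:4611593-5005614, plus strand) differed less between Leydig-like and stromal-like cells. In Leydig-like cells its level was 88.9 CPM (86.6 to 91.2) in PBS, 116 (113 to 120) in EXO and 111 (107 to 114) in dEXO. EXO over PBS gave a log2 ratio of 0.39 (0.33 to 0.44), dEXO over PBS 0.32 (0.25 to 0.38) and dEXO over EXO -0.07 (-0.14 to -0.01), so both exosome libraries were above PBS. In stromal-like cells the levels were 70.9, 98.7 and 75.9 CPM, and the ranges of the 2 classes over the libraries overlap. Cluster c7 of the stromal-like cells was at 113, 139 and 114 CPM, above the Leydig-like value of each library. Peritubular myoid-like cells followed at 33.5, 23.2 and 41.7 CPM on 7, 4 and 4 UMIs, and Sertoli-like, macrophage-like and T or NK-like cells lay between 6.65 and 13.5 CPM. Without the cells over 1% of Insl3 and tracer UMIs, Sertoli-like cells had 3.43, 1.84 and 1.55 CPM. Germ-cell classes were at most 3.32 CPM where a class had at least 50 cells.

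Nr3c1 showed another order of classes. Stromal-like cells had 348 CPM (336 to 360) in PBS, 322 (312 to 332) in EXO and 332 (319 to 346) in dEXO, and peritubular myoid-like cells had 325, 295 and 261 CPM with intervals that overlap the stromal-like ones. Leydig-like cells were lower by far, at 39.1 CPM (37.7 to 40.7), 43.9 (42.0 to 46.0) and 46.3 (43.9 to 48.8). Their log2 ratios were 0.17, 0.24 and 0.07 for the 3 pairs, the last with an interval from -0.03 to 0.18. Between these ends stood macrophage-like cells (100.1, 142 and 96.9), T or NK-like cells (84.7, 105 and 101) and spermatogonium-like cells (75.2, 83.7 and 71.7). T or NK-like cells overlapped macrophage-like cells, and their intervals overlapped those of spermatogonium-like cells in PBS and EXO. Early spermatocyte-like cells had 137 CPM in EXO (66 cells) and 142 in dEXO (126 cells), and 111 in PBS, where only 16 cells were found. Sertoli-like cells had 19.4, 23.0 and 22.2 CPM, and late spermatocyte-like and spermatid-like cells between 2.54 and 8.87, so that among germ cells the gene was seen at the early stages. Among Leydig-like clusters Nr3c1 was higher in c5 (62.3, 75.8 and 93.4 CPM), the cluster with the lowest Insl3 level, than in c0 (29.1, 31.7 and 40.9). It was also high in PBS and EXO in c18, whose Insl3 level was the highest of these clusters in PBS and dEXO. In c18 dEXO (46.1 CPM on 40 UMIs) was under PBS (74.6 on 79 UMIs) and EXO (73.4 on 122 UMIs) by more than 1.5-fold, against the direction over all clusters. The share of all genes that passed 1.5-fold in c18 was not computed.

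**Figure D3:**
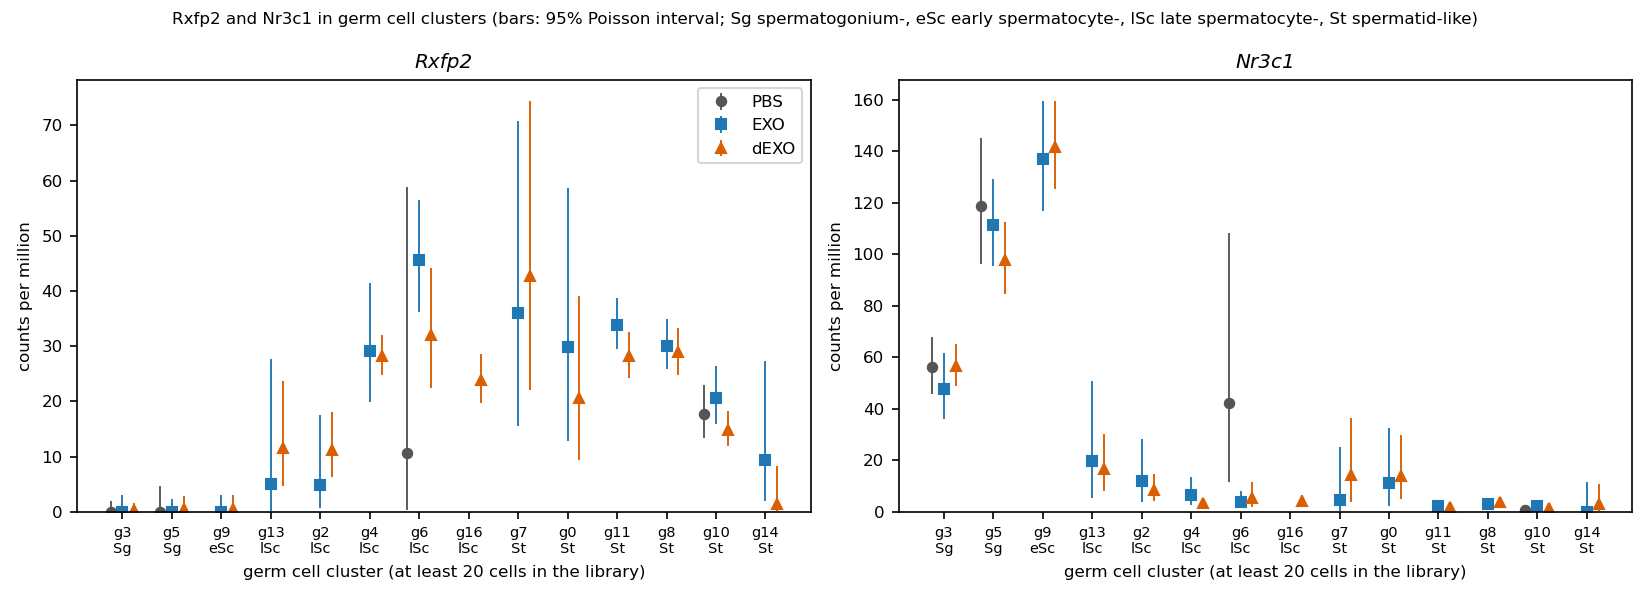
Level (CPM of summed UMIs) of Rxfp2 (left) and Nr3c1 (right) in the germ-cell clusters, ordered from spermatogonium-like to spermatid-like, 1 point per library with at least 20 cells and 95% counting intervals. Nr3c1 is highest in the spermatogonium-like cluster g5 (118.9, 112 and 97.8 CPM) and the early spermatocyte-like cluster g9 (137 and 142), where Rxfp2 has at most 1 UMI per library.

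Rxfp2, the INSL3 receptor (chr5:150018675-150082184, plus strand), was found in late germ cells. Spermatid-like cells had 20.7 CPM (17.1 to 24.8) in PBS, 29.4 (26.8 to 32.2) in EXO and 23.5 (21.4 to 25.7) in dEXO, on 116, 474 and 477 UMIs. Late spermatocyte-like cells had 14.8 CPM (8.27 to 24.4), 31.9 (27.1 to 37.2) and 25.1 (22.8 to 27.7), on 15, 160 and 421 UMIs, and did not separate from the spermatids. Spermatogonium-like cells, at medians of 25707, 15860 and 15782 UMIs per cell, held 0, 0 and 2 Rxfp2 UMIs in 85, 145 and 309 cells. Early spermatocyte-like cells held 0, 0 and 1, and in EXO and dEXO the intervals of both classes ended at 3.06 CPM or lower, under the lower ends of the late stages. Leydig-like cells, which make the hormone, held 7, 10 and 11 Rxfp2 UMIs in all, or 0.106, 0.230 and 0.369 CPM. Stromal-like cells held 3, 10 and 9. Of the 6 receptor genes, Rxfp2 alone had its highest level in germ cells.

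The level of Rxfp2 varied among clusters of the same class. In late spermatocyte-like clusters of the dEXO library it ran from 11.1 CPM (6.35 to 18.1) in g2 and 11.5 in g13 to 28.3 (24.9 to 32.1) in g4 and 32.0 in g6. The highest value of any germ cluster with at least 50 UMIs was 45.5 CPM (36.2 to 56.5), in g6 of the EXO library. Of the 3 deepest spermatid-like clusters, g8 and g11 had 30.1 and 33.9 in EXO and 28.9 and 28.2 in dEXO, while g10 had 17.7, 20.7 and 14.8 in PBS, EXO and dEXO. Rxfp2 was seen in 41.4%, 32.1% and 24.2% of spermatid-like cells at medians of 24982, 2470 and 2164 UMIs. These shares were taken at different depths, and no order of the libraries is read from them. Between libraries EXO stood above PBS by a log2 ratio of 1.11 (0.34 to 1.98) in late spermatocyte-like cells, and dEXO above PBS by 0.77 (0.03 to 1.62). The PBS value rests on 15 UMIs, and 67 of its 83 cells belong to cluster g6 at a median of 747 UMIs per cell, so these ratios set different clusters and depths beside each other. In spermatids the ratios were 0.51 (0.21 to 0.81), 0.18 (-0.12 to 0.49) and -0.33 (-0.51 to -0.14) for EXO against PBS, dEXO against PBS and dEXO against EXO.

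In stromal-like cells as a class the 5 receptors with enough UMIs did not pass 1.5-fold in any pair, and Insl3 did in both comparisons with PBS. The share of all genes past 1.5-fold in the class was 21.1% for EXO against PBS, 23.2% for dEXO against PBS and 14.6% for dEXO against EXO. Some values within its clusters went past it. For dEXO against EXO, Lhcgr in c6 stood at 0.74 (0.26 to 1.24) and Esr1 in c3 at -0.65 (-1.04 to -0.28). The share of all genes within a cluster was not computed. The clusters also differed in size between libraries. Without cells over 1% of Insl3 and tracer UMIs, c7 held 228, 1124 and 230 cells and c6 148, 514 and 1032. The median stromal gene itself was shifted by log2 ratios of 0.26, 0.23 and 0.00, so ratios against PBS are given relative to it. Esr1 then stood at 0.21, -0.14 and -0.38 in the 3 pairs, with EXO the highest library. Nr3c1 stood at -0.37, -0.30 and 0.04, that is, lower in both exosome libraries than the median gene's shift, although its unshifted ratios were -0.11 and -0.07. Lhcgr (0.13, 0.02 and -0.15), Nr5a1 (0.09, 0.02 and -0.10) and Prlr (-0.05, 0.08 and 0.09) stayed near the shift over the class. Within the clusters where Lhcgr was concentrated it did not. Relative to the cluster's median gene it stood at -0.40 (EXO) and -0.44 (dEXO) against PBS in c7, and at -0.27 and 0.28 in c6. Insl3 in stromal-like cells was 399, 601 and 640 CPM, with relative log2 ratios of 0.33, 0.45 and 0.09, under 1.5-fold once the shift was taken off. These levels rest on 3882, 6909 and 4336 UMIs in 2021, 4569 and 3166 cells, at medians of 4756, 2326 and 1967 UMIs per cell. The PBS cells were the deepest and held the most Insl3 UMIs per cell, so CPM and UMIs per cell order the libraries differently. With each library clustered alone the unshifted ratios turned, to -0.94 for EXO and -0.84 for dEXO against PBS.

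Insl3 UMIs were found outside Leydig-like cells in every class and library. In the 23 combinations of the other classes and libraries with at least 50 cells after thinning, 44.7% to 88.2% of cells (median 60.6%) had at least 1 Insl3 UMI. After thinning to 1000 UMIs the share was 7.06% to 35.3% (median 22.7%), against 99.2%, 98.4% and 98.9% of Leydig-like cells. The typical cell of the other classes had 0 to 2 Insl3 UMIs, where the median Leydig-like cell had 742, 560 and 364. T or NK-like cells, macrophages and germ cells are not known to make the hormone, and their shares are taken as the background here. The source of the Insl3 UMIs in stromal-like and Sertoli-like cells was not tested.

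**Figure D4:**
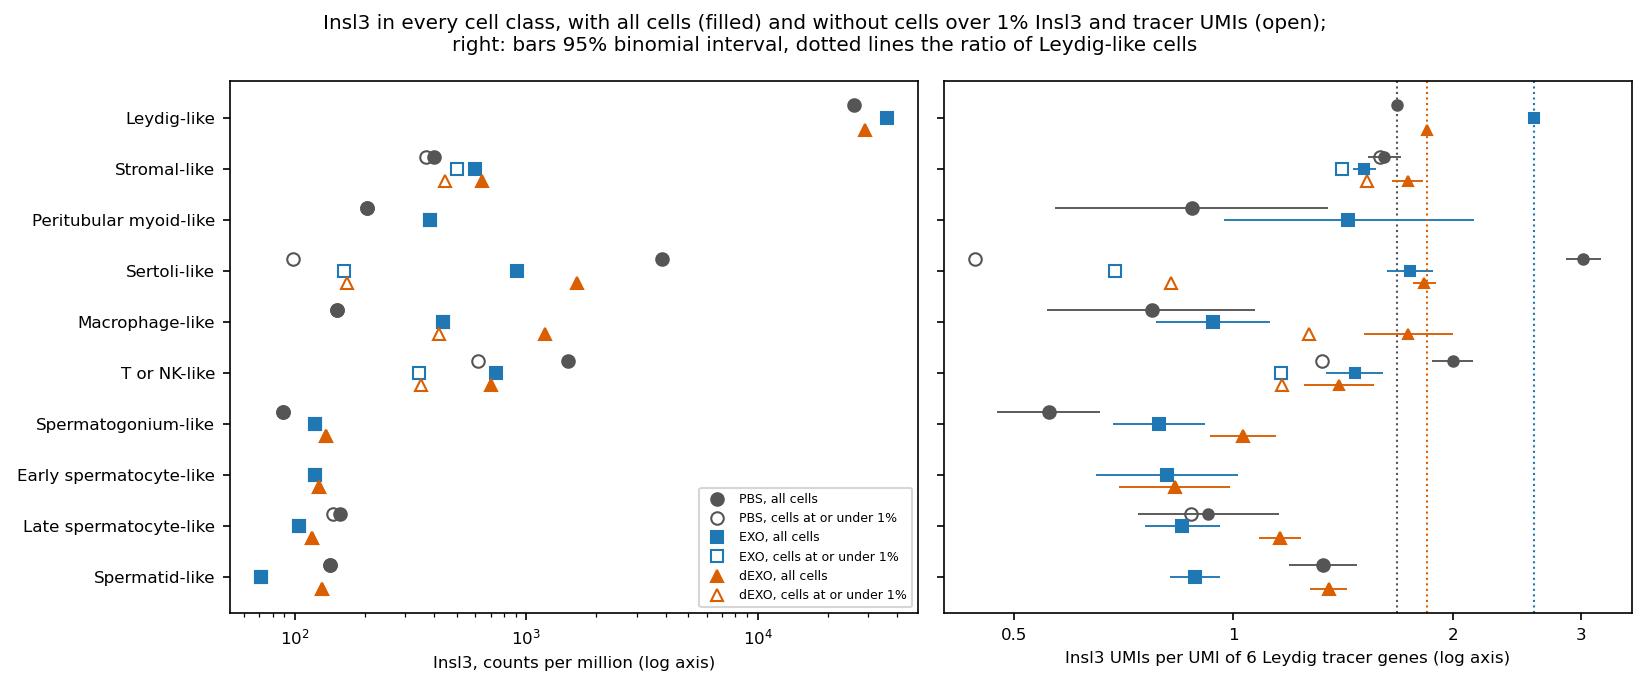
Insl3 level (left, CPM, log axis) and Insl3 UMIs per tracer UMI (right, log axis, bars for the 95% interval, dotted lines at the Leydig-like ratio) by class and library, with all cells (filled) and without cells that give over 1% of their UMIs to Insl3 and 6 Leydig tracer genes (open). Without these cells the classes other than Leydig-like lie between 71.4 and 619 CPM (classes of at least 50 cells), against 25971 to 36129 CPM in Leydig-like cells.

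A few cells held most of this Insl3 in some classes. In the Sertoli-like cells of PBS, 3 of 81 cells gave over 1% of their UMIs to Insl3 and 6 tracers of Leydig cells (Cyp17a1, Hsd3b1, Star, Cyp11a1, Hsd3b6 and Sult1e1), and these 3 held 97.8% of the class's Insl3 UMIs. In EXO and dEXO such cells were 6 of 233 and 26 of 579 and held 82.9% and 90.7%. The Insl3 level of Sertoli-like cells was 3838, 915 and 1650 CPM with them and 97.8, 162 and 167 without. T or NK-like cells had 5, 6 and 3 of them, which held 61.6%, 54.9% and 52.2% of the Insl3 UMIs, and stood at 619, 344 and 351 CPM without. In macrophage-like cells 3 dEXO cells held 67.3%, and the level went from 1198 to 420 CPM without them. Over classes of at least 50 cells, the level without such cells ran from 88.9 to 619 CPM in PBS, 71.4 to 501 in EXO and 118 to 443 in dEXO. The highest value was that of T or NK-like cells in PBS and of stromal-like cells in EXO and dEXO (367 CPM in PBS, 501 and 443), and the lowest in each library was that of a germ-cell class. In some classes the direction of a difference of Insl3 between libraries turned without these cells. The log2 ratio of EXO against PBS in Sertoli-like cells was -2.07 with them and 0.73 without, and that of dEXO against PBS -1.22 and 0.77. For dEXO against EXO in macrophage-like cells it was 1.46 with them and -0.048 without. Spermatid-like cells (-0.98 for EXO against PBS, 0.87 for dEXO against EXO) had no cell over 1%. Neither had macrophage-like cells of PBS and EXO (1.52 for EXO against PBS). Leaving such cells out could therefore not change these ratios. In spermatid-like cells of PBS, 1 cell alone held 431 of the 792 Insl3 UMIs. Prlr moved with the cells over 1%, from 134, 49.6 and 90.4 CPM in Sertoli-like cells to 6.01, 9.19 and 15.01 without.

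Were all of it free RNA in the proportions of Leydig-like cells, Insl3 and the tracers would stand in the same ratio in every class of a library. In Leydig-like cells there were 1.68, 2.59 and 1.84 Insl3 UMIs per tracer UMI in PBS, EXO and dEXO. In the other classes the ratio was lower in 23 of 25 class and library values, in 20 of them with the interval under the Leydig-like value, and without the cells over 1% in 25 of 25. Against single tracers, with all cells, it was lower in 16 (Cyp17a1), 19 (Sult1e1), 20 (Cyp11a1), 21 (Hsd3b1), 24 (Star) and 24 (Hsd3b6) of 25. Over classes its medians without the cells over 1% were 0.877, 0.886 and 1.16. The ratio thus differed between classes, from 0.442 in Sertoli-like to 1.59 in stromal-like cells of PBS, and which part of it other cells, such as broken ones, account for was not tested. The 1% limit is set on the same UMIs as the ratio, so the values without these cells are not independent of it. No barcode held fewer than 500 UMIs. Free RNA was therefore not measured in empty droplets, and its own ratio is not known.

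The receptors can be read against this background, as UMIs per Insl3 UMI relative to the same ratio in Leydig-like cells. A gene whose UMIs in a class came with Insl3 in the proportion of Leydig-like cells would stand at 1. Summed, the 6 tracers stood at 1.05 to 3.79 over the classes of PBS, 1.80 to 3.76 in EXO and 1.21 to 2.24 in dEXO. Single tracers went past this range in some classes. In dEXO there were 45.2 Insl3 UMIs per Star UMI in Leydig-like cells and 7.77 in early spermatocyte-like cells. Without the cells over 1%, Lhcgr in stromal-like cells stood at 7.81, 9.78 and 7.23 times the Leydig-like ratio in PBS, EXO and dEXO, against 2.72, 1.59 and 3.26 in T or NK-like cells. Prlr stood at 17.9, 21.5 and 18.9 in stromal-like cells and at 1.16, 1.52 and 1.77 in Sertoli-like cells, within or under the range of the summed tracers. Nr5a1 stood at 127, 98.5 and 65.7 in Sertoli-like cells and at 25.5, 30.7 and 22.6 in stromal-like cells. Esr1 stood at 56.6, 61.2 and 45.1 in stromal-like cells. Nr3c1 stood at 90.0, 247 and 180 in T or NK-like cells and at 630, 531 and 476 in stromal-like cells. The stromal-like values of these 5 receptors were above those of T or NK-like cells and above the range of the summed tracers in every library. For Lhcgr this held for the sum of the class and not for each of its clusters: c3 stood at 3.60, 2.63 and 1.19 in PBS, EXO and dEXO, and in dEXO c2 (2.99), c3 and c4 (2.92) were under the T or NK-like value. The small stromal-like cluster c17 held no Lhcgr UMI in PBS. Macrophage-like cells came nearer to the stromal-like class than T or NK-like cells for Lhcgr, at 2.90, 7.43 and 4.71. These values rest on 3, 21 and 13 Lhcgr UMIs, and the 21 of EXO lay in 1.10% of its 182 macrophage-like cells. For Prlr macrophage-like cells stood at 2.78, 5.20 and 4.76. For Nr3c1 early spermatocyte-like cells stood above stromal-like cells in EXO (923) and dEXO (698), and spermatogonium-like cells did so in EXO (563). The 1% limit is set in part on Insl3 and was not applied to the Leydig-like ratio, so these multiples are not independent of it. With all cells, Nr5a1 in Sertoli-like cells stood at 3.45, 17.6 and 7.35 in PBS, EXO and dEXO. Lhcgr in stromal-like cells then stood at 7.21, 8.21 and 5.25.

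**Figure D5:**
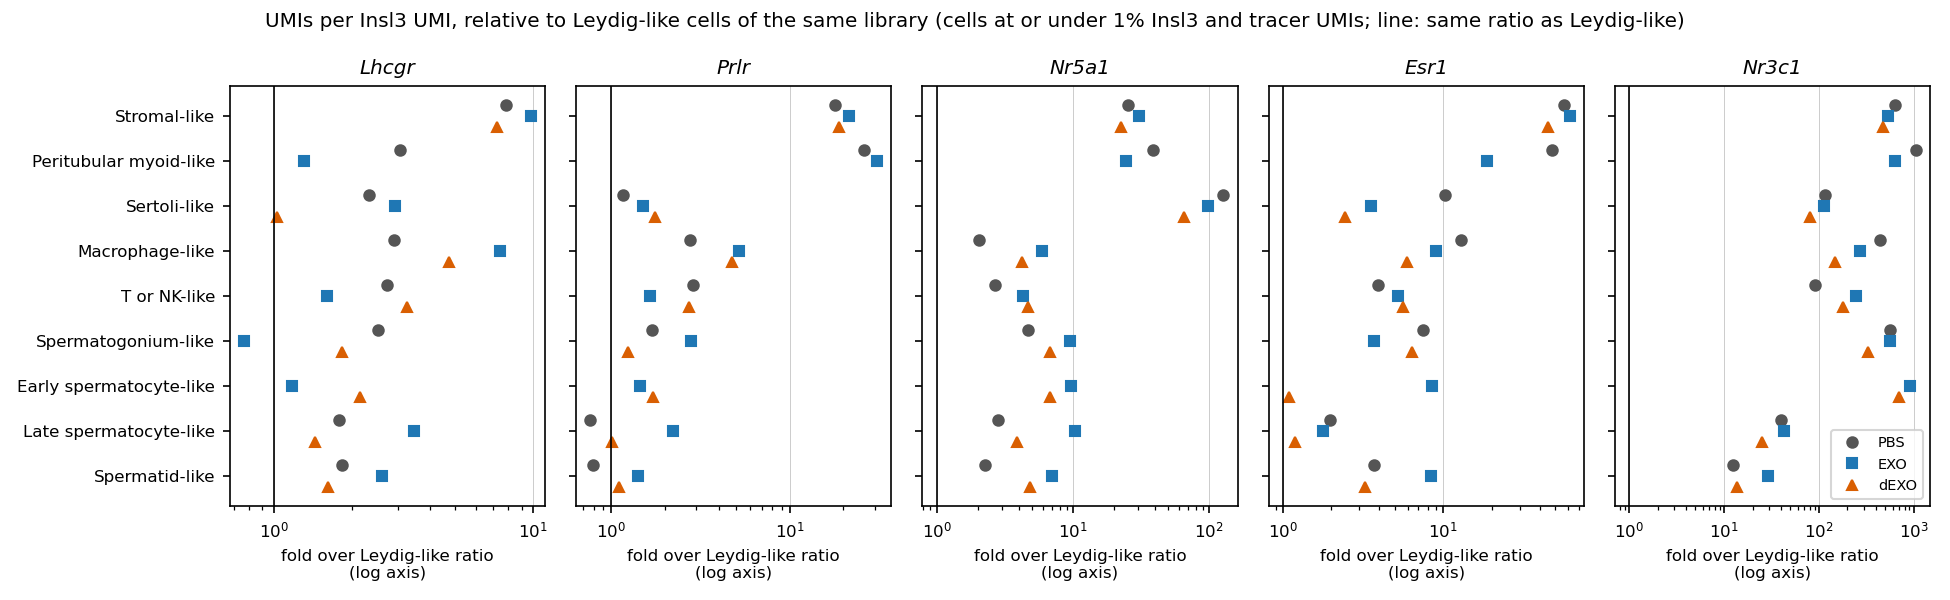
UMIs of each receptor gene per Insl3 UMI in each class, as a multiple of the ratio in Leydig-like cells of the same library (log axis), without cells over 1% of Insl3 and tracer UMIs. The line at 1 is the Leydig-like ratio: Prlr in Sertoli-like cells is at 1.16 to 1.77, and in stromal-like cells at 17.9 to 21.5.

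Prlr was seen in 99.1%, 98.0% and 97.8% of Leydig-like cells, and after thinning to 1000 UMIs in 70.3%, 67.4% and 70.6%. In stromal-like cells, at medians of 4756, 2326 and 1967 UMIs, the share was 61.3%, 52.6% and 47.7% and, thinned, 24.7%, 31.7% and 32.2%. In T or NK-like cells, which serve as the background, the thinned share was 4.14%, 2.33% and 4.09%. Thinned shares of Lhcgr were 29.3%, 32.7% and 33.9% in Leydig-like, 3.46%, 4.45% and 4.13% in stromal-like and 1.18%, 0.194% and 1.20% in T or NK-like cells. Nr5a1 was seen in 15.9%, 17.1% and 18.1% of thinned Leydig-like cells and in 9.72%, 8.25% and 8.33% of Sertoli-like cells, against 0.592%, 1.36% and 0.962% of T or NK-like cells. Unthinned, Leydig-like shares were 96.8%, 92.1% and 91.3% for Lhcgr and 92.8%, 85.0% and 84.6% for Nr5a1. Nr3c1 was seen in 26.2%, 27.1% and 27.1% of thinned stromal-like cells and in 4.62%, 4.18% and 4.77% of Leydig-like cells, whose unthinned shares were 67.8%, 48.3% and 44.2% and 61.6%, 46.3% and 44.1%. Thinning left out 4, 14 and 15 Leydig-like and 141, 594 and 575 stromal-like cells.

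The genes around these receptors were read in Leydig-like cells from lists of the pathways, each beside the median over all genes (log2 ratios of 0.055, 0.082 and 0.061 in the 3 pairs). Of 7 other relaxin-family hormones and receptors only Insl6 had at least 50 UMIs, and it did not pass 1.5-fold. Of 22 measured genes of the cAMP pathway that LHCGR uses, 4 were higher and 1 lower past 1.5-fold in EXO against PBS, with a list median of 0.07. In dEXO against PBS 1 was higher and 2 lower, and in dEXO against EXO 1 and 1. The shares of all genes past 1.5-fold in either direction, beside which these and the next counts stand, were 16.9%, 23.7% and 16.6% in the 3 pairs. Crem, a cAMP-responsive transcription factor, had 20.1 CPM in PBS and 31.1 in EXO. Prkar2b, a regulatory subunit of protein kinase A, had 28.4, 18.4 and 15.5 in PBS, EXO and dEXO.

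Of 13 measured partners of NR5A1, 3 were higher in EXO than in PBS and none lower (median 0.23), 3 were higher and 2 lower in dEXO against PBS (median 0.25), and 3 higher and 2 lower in dEXO against EXO (median -0.01), where 16.9%, 23.7% and 16.6% of all genes passed. Nr4a1, an orphan receptor of the NUR77 family that is induced within minutes by many signals and also binds the Insl3 promoter, had 28.0 CPM in PBS, 264 in EXO and 13.9 in dEXO. Only the EXO library was high. Nr0b1 (DAX1), a repressor of NR5A1, had 8.18, 12.6 and 21.4 CPM, and Tcf21, a transcription factor of stromal progenitors, 46.5, 34.2 and 22.1. Wt1, a gene known from Sertoli cells, is among the higher ones at 0.363, 0.875 and 1.88 CPM. Of 8 SF1 target genes of the steroid pathway, 1 was higher in each pair and 2 were lower in each comparison of dEXO, beside the same 16.9%, 23.7% and 16.6% of all genes. Star, which carries cholesterol into mitochondria, had 1458, 1374 and 642 CPM, with dEXO below both other libraries. Fdx1, the electron donor of the mitochondrial steroid enzymes, had 2467, 2382 and 1465, and Hsd3b1, which makes progesterone and androstenedione, 713, 1183 and 1952. Insl3, also a target of NR5A1, followed neither order.

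Prolactin signalling genes had list medians below those of all genes, at -0.13, -0.34 and -0.18. Of 11 measured, 1 was higher and 1 lower in EXO against PBS, 1 higher and 3 lower in dEXO against PBS, and 0 higher and 2 lower in dEXO against EXO, beside 16.9%, 23.7% and 16.6% of all genes. Stat5a, which carries the PRLR signal to the nucleus, had 16.2 CPM in PBS, 9.78 in EXO and 9.16 in dEXO. Socs2, a feedback inhibitor, had 5.11 in PBS, 6.31 in EXO and 1.04 in dEXO. Prlr itself stayed between 1348 and 1475 CPM.

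Of 6 measured genes of estrogen synthesis, breakdown and response, 1 was higher and 1 lower in EXO against PBS, 2 were higher and 2 lower in dEXO against PBS, and 1 higher and 2 lower in dEXO against EXO. Of all genes, 16.9%, 23.7% and 16.6% passed. Greb1, a target of ESR1, had 15.1, 5.96 and 3.49 CPM, lower in both exosome libraries, while Esr1 was higher in both. Sult1e1, which sulfates and inactivates estrogens, had 821, 1370 and 1539, and Hsd17b7, which also acts in cholesterol synthesis, 122, 107 and 46.8. Of 16 measured genes of glucocorticoid activation and response, 3 were higher and 1 lower in EXO against PBS, 1 higher and 2 lower in dEXO against PBS, and 1 higher and 3 lower in dEXO against EXO, beside 16.9%, 23.7% and 16.6% of all genes. Zbtb16, a target of NR3C1, had 8.50, 26.3 and 27.2 CPM. Per1, a clock gene that glucocorticoids and cAMP induce, had 9.79, 32.7 and 13.4, and Errfi1, a feedback inhibitor of EGF receptors, 54.1, 162 and 32.6. Nfkbia, an inhibitor of NF-kB, had 94.7, 47.7 and 93.6, so that these response genes did not share 1 direction. Of 14 other hormone receptors measured, 1 was higher in EXO against PBS and 4 were higher and 1 lower in dEXO against PBS, where 16.9% and 23.7% of all genes passed. In dEXO against EXO none of 13 did, against 16.6% of all genes. Avpr1a, the vasopressin receptor, had 3.28, 6.88 and 6.21, and Igf1r, the receptor of insulin-like growth factor 1, had 172 CPM in PBS and 112 in dEXO.

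The genes whose pattern over classes was most like each of the 7 were found among 13088 genes, by Pearson's r of log2(CPM + 1) over 28 sums of 10 classes in the 3 libraries. The sums of 1 library share its depth and its free RNA, so r is a description. Closest to Insl3 were Lcn2 (r = 0.98), Cyp17a1 and Hsd3b6, 2 steroid enzymes that are also class markers, then Bhmt and Ptgds. Lhcgr was most like Fabp3 (0.95), Akr1cl, Vcam1, Pank1 and Itih2, and Nr5a1 most like Gstm2 (0.97), Smarca1, Vstm4, Mgst1 and Scd2. Prlr and Esr1 shared their nearest gene, Fxyd1 (0.99 and 0.97), with Pkdcc, Acsbg1 and Aldh1a1 also near Prlr and Aff2, C2, Ndrg2 and Pcolce near Esr1. Nr3c1 was most like Trerf1 (0.97), Peak1, Tob2, Map7d1 and Sp3. Rxfp2 had the lowest best match, with Cdkl1 (0.94), then Bag5, Fam98c, Ift57 and Rabepk.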

How the data were processed

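Raw UMI counts were deposited for each of the 3 libraries. Per the file headers they came from Cell Ranger 5.0.1, and Seurat and GRCm38 are also named in the submitters' processing notes. Barcodes under 500 UMIs or 300 genes or over 20% mitochondrial UMIs were left out, Scrublet calls (scanpy 1.11.5) were removed, and all cells were clustered together (2000 variable genes without the 7 genes, 30 components, Leiden resolution 1; germ cells once more). The rule that turned markers into names was set after the clusters were seen. Counts were summed per class and library and divided by the sum's total (CPM); ratios have exact conditional binomial 95% intervals, with 3 counts in place of a 0, and shares were computed per cell, unthinned and at 1000 UMIs. A gene was called when past 1.5-fold with at least 50 UMIs over both libraries, in classes with at least 50 cells in both. Named list genes are those with the highest and lowest ratios per list and pair; likeness used genes with at least 500 UMIs, and 1 gene it names is not reported here. The 7 genes, lists and markers were chosen with earlier results of these data known. Gene coordinates follow GENCODE and promoters RefSeq (GRCm38.p6); scripts were tested on simulated data. Alternatives covered scaling, depth, doublets, clustering, thresholds and single clusters.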

Additional observations from a re-analysis of the deposited data

Results flagged for a closer look

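Insl3 was high in cells that no class took. In cluster c14, with macrophage and Leydig markers, its level was 21279 CPM in PBS (151 cells), 28650 in EXO (164) and 24823 in dEXO (188). In cluster c16, with T-cell and Leydig markers, it was 16113, 22695 and 22950 CPM in 73, 133 and 95 cells. In cluster c19, with cell-cycle, Leydig and stromal genes, it was 12681, 15734 and 16547 CPM in 57, 120 and 53 cells, and in cluster g17, with spermatid and Leydig markers, 10678 CPM in 30 dEXO cells. These levels are far above those of the named classes other than Leydig-like. Jak3, which was not among the 7 genes and shares its last exon with Insl3, was at 83.5, 72.5 and 55.2 CPM in Leydig-like cells of PBS, EXO and dEXO. These clusters carry markers of 2 cell types, and the part of doublets in their Insl3 level was not tested, nor was that of reads in the shared exon in the Jak3 level.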

How the results depend on the processing

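For Insl3 in Leydig-like cells, 47 of 48 alternative log2 ratios kept their direction and 1 passed 1.5-fold. Of the 48, 5 lay within the main counting interval. Keeping the 7 genes among the variable genes gave the main values again, since none of them was variable over all cells. In the order EXO against PBS, dEXO against PBS and dEXO against EXO, the values were 0.42, 0.079 and -0.38 scaled by the median gene, 0.49, 0.17 and -0.32 with a total without the 7 genes and tracers, 0.42, 0.20 and -0.22 with each cell weighted equally, 0.43, 0.21 and -0.22 thinned to 1000 UMIs, 0.52, 0.14 and -0.38 with the top doublet scores removed, 0.48, 0.17 and -0.31 at resolution 0.5, 0.49, 0.17 and -0.33 at resolution 2, 0.54, 0.15 and -0.39 with each library clustered alone, and 0.46, 0.14 and -0.32 with unnamed clusters of raised Leydig markers counted in. EXO against PBS and dEXO against EXO were 0.49 and -0.32 with no doublet removed and 0.48 and -0.32 at a 10% mitochondrial limit. Within clusters they were 0.53, 0.17 and -0.36 (c0), 0.53, 0.37 and -0.16 (c1), 0.20, -0.39 and -0.59 (c5), and 0.16, 0.10 and -0.061 (c18). The numbers of genes called in Leydig-like cells, 2554, 3550 and 2446, were 1338, 2064 and 1238 at 2-fold, 5677, 6778 and 4999 with at least 10 UMIs, 1056, 1800 and 1073 with at least 200, and 13877, 13129 and 11404 with no minimum.

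The other genes in Leydig-like cells kept their direction in 222 of 240 alternatives, with 2 past 1.5-fold (Nr3c1 in c18, where the share of all genes past it was not computed). In other classes 775 of 837 kept it. Called Insl3 ratios changed sign with the top doublet scores removed for EXO against PBS in T or NK-like (0.15), Sertoli-like (0.34) and late spermatocyte-like cells (0.25) and for dEXO against PBS in Sertoli-like cells (0.85). With each library clustered alone they did so in stromal-like cells (-0.94 and -0.84 for EXO and dEXO against PBS). Without cells over 1% of UMIs from Insl3 and tracers, an alternative chosen after seeing the data, they did so in Sertoli-like (0.73 and 0.77) and macrophage-like cells (-0.048, dEXO against EXO). The causes were not tested beyond what each alternative removes. No paired analysis was possible because each group is 1 library. Outside late germ cells Rxfp2 was not compared between libraries, because its UMIs in the other classes were under the minimum set for calling a gene.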
